A study of Mus musculus with 9 samples.

Results

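Mice given the aminopropyl carbazole P7C3-A20 after intracerebral haemorrhage (ICH, a bleed into the brain tissue) were set against sham mice, to describe which transcripts still differed from sham while the compound was given. The comparison takes 6 of the 9 libraries of the series: ICH+P7C3-A20 1, 2 and 3 and sham 1, 2 and 3, each from a separate mouse. All mice were wild-type C57BL/6, the tissue is labelled brain without a region, and it was taken at 72 hours. The ICH+P7C3-A20 mice had the haemorrhage and the compound, the sham mice had the control treatment without a haemorrhage, and the 3 remaining libraries came from ICH mice without the compound, which give the level reached without it. The labels give no dose, sex, age or brain region, and no group received P7C3-A20 without a haemorrhage. The haemorrhage and the compound therefore cannot be told apart in the comparison with sham. Per the series' design text the mice of each group were allocated at random and separate animals were sequenced.

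P7C3-A20 is a small molecule of a series found by its protection of newborn neurons in the hippocampus, and it has been linked to NAMPT, which catalyses the slow step in recycling nicotinamide to NAD. In brain haemorrhage, haem released from red blood cells is broken down by haem oxygenase, microglia and infiltrating monocytes clear debris, and astrocytes around the clot become reactive, with high GFAP. Chemokines, complement and interferon-stimulated genes are parts of the response, while transcripts of local neurons are usually lower.

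PolyA-selected, strand-marked libraries held 51537047 to 63324728 estimated counts each. Expression is given as counts per 1000000 (CPM, scaled by the trimmed mean of M-values), always in the order of replicates 1, 2 and 3. A bare value after a gene name is its log2 change, ICH+P7C3-A20 minus sham, and a second value beside it in the same parentheses is the adjusted p. On the first principal component, which took 40.7% of the variance, sham lay between -81.1 and -76.2, ICH between 71.8 and 80.5, and ICH+P7C3-A20 1, 2 and 3 at -34.5, 17.4 and 18.5. A pair of libraries stood apart from their groups. ICH+P7C3-A20 1 had cortical neuron transcripts 1.37 (log2) above the sham mean and oligodendrocyte transcripts -1.03 from it, and sham 3 had thalamic and hypothalamic transcripts -2.06 from it. Other libraries also differed within their group. Choroid plexus and ependymal transcripts lay at 0.34, 0.95 and -1.29 from the sham mean in sham. In ICH+P7C3-A20 they lay at 0.62, 2.13 and -0.29, and in ICH at 1.58, -0.99 and 2.56. Leaving out the pair therefore does not remove differences in the tissue sampled. Defining markers of neurons, astrocytes, oligodendrocytes, microglia, endothelium and monocytes or macrophages had a count in all 9 libraries.

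Of 21900 genes tested, 1165 (5.32%) differed between ICH+P7C3-A20 and sham in edgeR's quasi-likelihood test with Benjamini-Hochberg adjusted p under 0.05. Higher calls numbered 1002 (4.58% of genes tested) and lower calls 163 (0.744%). The rises were also larger: 705 genes were at least 2-fold higher, 280 at least 4-fold and 133 at least 8-fold, against 13 at least 2-fold lower. The median log2 change was 1.39 among higher and -0.59 among lower calls, and 0.03 over all genes tested. In the deposited FPKM values, all 1002 higher and all 163 lower calls had the same direction of the group means, and the groups did not overlap for 943 and 146 of them. The counts are estimates from the same coverage as the FPKM values, so this agreement was largely fixed in advance and is no independent check. In CPM the groups did not overlap for 4473 of all genes tested (20.4%), and the share in FPKM was not taken. For scale, ICH without the compound differed from sham, the same 3 sham mice, at 5701 genes (26%), and ICH+P7C3-A20 differed from ICH at 1914 (8.74%), 590 higher and 1324 lower, with 571 to 813 calls left without ICH 1, 2 or 3 or ICH+P7C3-A20 1.

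**Figure D1:**
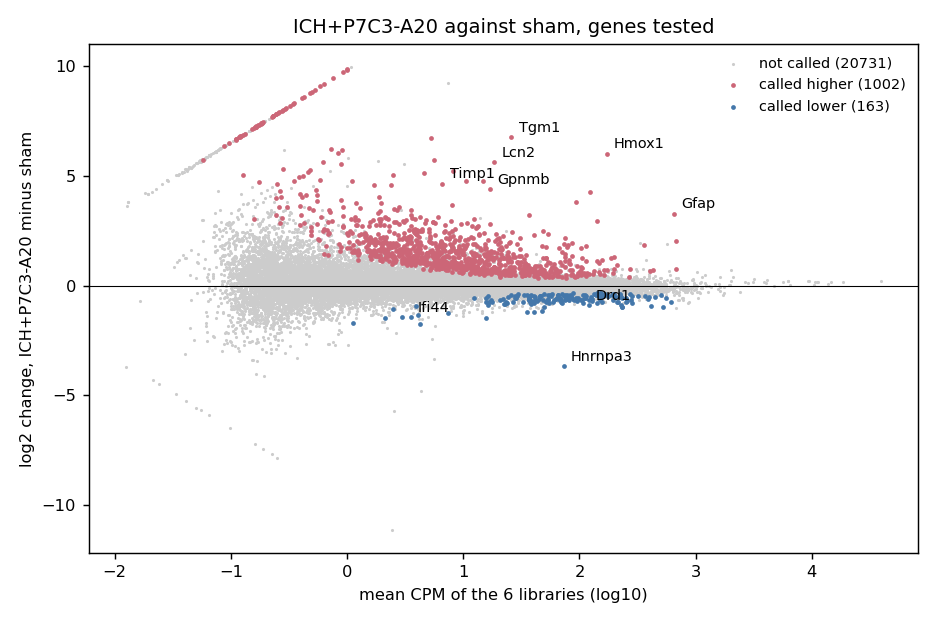
Each point is 1 of 21896 genes tested with a count in the 6 libraries, with the mean CPM of the ICH+P7C3-A20 and sham libraries on a log10 x axis and the log2 change, ICH+P7C3-A20 minus sham, on the y axis. The 1002 genes called higher reach further from 0 than the 163 called lower. The 4 genes tested that had no count in these 6 libraries are not drawn.

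The size of this set depended on single libraries and on the tool. Without both libraries that stood apart, 2222 genes were called, 1661 higher and 561 lower. Without ICH+P7C3-A20 3 there were 538 calls, without ICH+P7C3-A20 2 there were 774, and without sham 1 there were 653. DESeq2 called 2109 genes, of which 73.9% were higher against 86% in edgeR, and limma on log2(FPKM + 1) called 331, of which 94.9% were higher. Genes are said to have risen or fallen by the edgeR test on all 9 libraries, adjusted p always refers to that test, and the error after ± is the size of the log2 change over the root of its F statistic. Most genes named below were picked by their size or p in this same comparison. The largest changes were named only where the groups did not overlap. A lack of overlap in a named gene therefore describes it and adds no support.

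The genes that the results turn on are listed in the deposited table at these positions: Lcn2 (ENSMUSG00000026822, chromosome 2, 32384633 to 32387797), Tgm1 (ENSMUSG00000022218, chromosome 14, 55700009 to 55713492), Gpnmb (ENSMUSG00000029816, chromosome 6, 49036546 to 49070929), Msr1 (ENSMUSG00000025044, chromosome 8, 39581685 to 39642673), Ccl2 (ENSMUSG00000035385, chromosome 11, 82035571 to 82037453), Socs3 (ENSMUSG00000053113, chromosome 11, 117966079 to 117970047), Rrm2 (ENSMUSG00000020649, chromosome 12, 24708241 to 24714146), Ifit1 (ENSMUSG00000034459, chromosome 19, 34640871 to 34650009), B2m (ENSMUSG00000060802, chromosome 2, 122147686 to 122153083), Drd1 (ENSMUSG00000021478, chromosome 13, 54051183 to 54055705), Slc32a1 (ENSMUSG00000037771, chromosome 2, 158610767 to 158615748), Ano2 (ENSMUSG00000038115, chromosome 6, 125690419 to 126040126) and Mical2 (ENSMUSG00000038244, chromosome 7, 112225856 to 112413102). The table's build is not given in the sources used here, and 30806 of its 35112 genes have the identical position in GENCODE M21 on GRCm38.

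The genes were read through 52 lists of known pathways and cell types holding 757 tested genes. Of the 1002 higher calls 192 were in a list, and of the 163 lower calls 10. Over all genes tested 4.58% were called higher and 0.744% lower, the shares to set beside each list's count. The highest list medians were in reactive astrocyte genes (2.39), monocyte and macrophage markers (2.12), chemokines (2.08), neutrophil markers (2.02) and complement (1.81), and the lowest in thalamic and hypothalamic genes (-1.04) and striatal projection neuron genes (-0.67). The thalamic and hypothalamic list had 0 of 15 genes called (2 lower without both libraries that stood apart), and its median was -1.55 to -0.55 without 1 library. Its sham libraries lay at 0.47, 1.59 and -2.06 from their own mean. On quantile-normalized FPKM, where a pseudocount of 1 lowers the change of low genes, the sizes and the order differed: complement had 1.27, disease-associated microglia markers 0.98, homeostatic microglia markers 0.95, reactive astrocyte genes 0.93, chemokines 0.65, monocyte and macrophage markers 0.51, neutrophil markers 0.30, striatal genes -0.63 and thalamic and hypothalamic genes -0.51. The neutrophil median was 2.78 without sham 2. Fewer members than in edgeR were called higher by limma on log2(FPKM + 1). It called 8 of 20 disease-associated and 5 of 13 homeostatic microglia markers and 6 of 16 monocyte and macrophage markers. Of the chemokines it called 8 of 19, and of the complement genes 9 of 16.

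**Figure D2:**
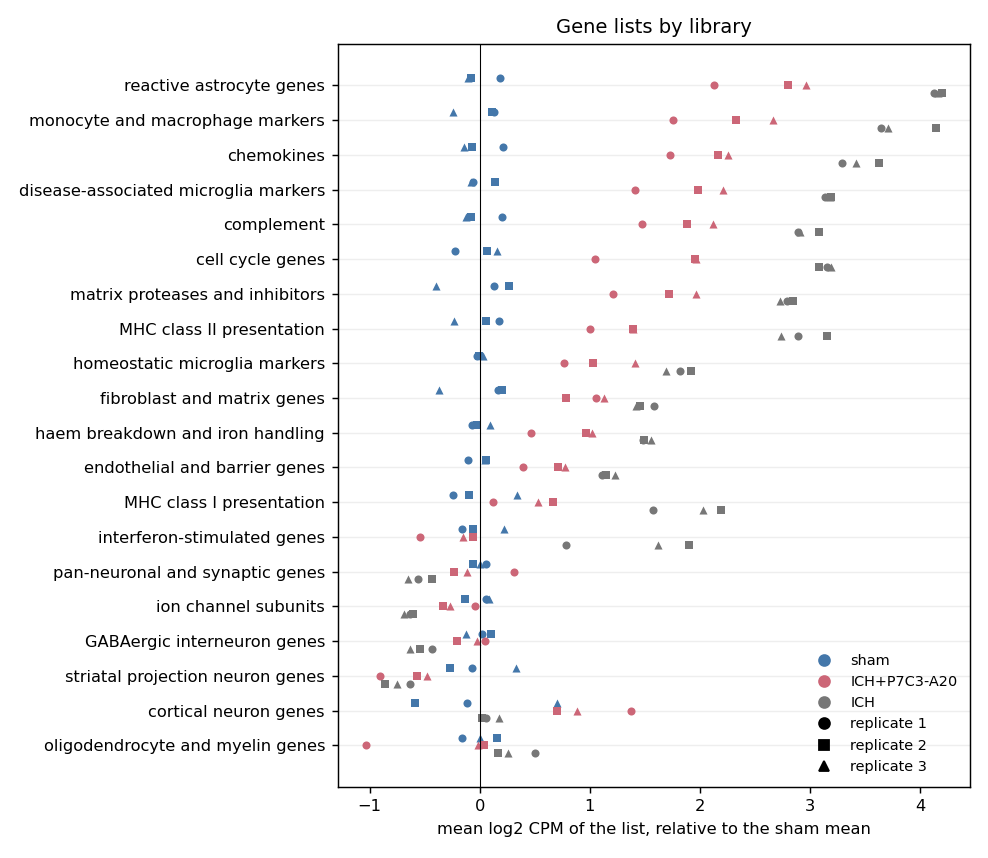
Mean log2 CPM of each list's tested genes in each library, relative to the sham mean, for 20 lists; colour gives the group and marker shape the replicate. The ICH+P7C3-A20 libraries lie between sham and ICH for the reactive astrocyte genes, and at or below sham for the interferon-stimulated genes in replicate 1 (-0.55), 2 (-0.07) and 3 (-0.15).

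Haem breakdown was led by Hmox1, the inducible haem oxygenase that opens the porphyrin ring. Hmox1 stood at 4.94, 6.82 and 3.96 CPM in sham and at 191, 349 and 471 CPM in ICH+P7C3-A20. Every treated library lay above every sham library, and the lowest was replicate 1. The log2 change was 6.01 ± 0.36 (edgeR, adjusted p = 7.85e-05), or 64.4-fold. In ICH the change from the same sham mice was 7.70 ± 0.39, and the treated level was 3.23-fold lower than that of ICH (adjusted p = 0.00974). Slc11a1, a metal transporter of phagosomes, rose from 1.68, 1.77 and 1.93 to 7.998, 12.6 and 15.5 CPM, a log2 change of 2.75 ± 0.23 (adjusted p = 2.02e-04), and the groups did not overlap. Ftl1, the ferritin light chain that stores iron, rose by 1.85 ± 0.30 (adjusted p = 0.00532), although it shares sequence with other genes and its counts are uncertain. Of the 21 haem and iron genes tested, 5 rose, against 4.58% of all genes, and none fell, with a median log2 change of 0.43. The other risen members were Slc40a1, the iron exporter ferroportin (1.08, lost without sham 1, ICH+P7C3-A20 2 or ICH+P7C3-A20 3 (adjusted p = 0.0716 to 0.0906)), and Cp, the ferroxidase ceruloplasmin (0.83). Carriers of haem and haemoglobin were not among them: Hpx, haemopexin, had 1.86 (adjusted p = 0.382; 3.38 without sham 3 and 0.79 without ICH+P7C3-A20 3) and Hp, haptoglobin, 1.27 (0.225). Without ICH+P7C3-A20 1, 9 members were called higher, and without both libraries that stood apart, 10. The red blood cell markers had 0 of 6 called by edgeR, also at unadjusted p under 0.05, by DESeq2 and by limma; Hba-a1, an alpha globin, stood at 4.49, 8.11 and 2.24 CPM in sham and 4.29, 10.1 and 10.3 in ICH+P7C3-A20, with overlapping groups.

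Reactive astrocyte genes were raised: 17 of 20 tested rose, against 4.58% of all genes, none fell, and the median log2 change was 2.39 where ICH had 3.81. Gfap, the intermediate filament of astrocytes, stood at 153, 125 and 90.3 CPM in sham and at 823, 1208 and 1517 CPM in ICH+P7C3-A20. Every treated value lay above every sham value, and replicate 3 was the highest. This was a log2 change of 3.27 ± 0.26 (adjusted p = 1.97e-04). Lcn2, the iron-siderophore carrier lipocalin 2, went from 0.559, 0.441 and 1.18 to 23.1, 32.5 and 53.01 CPM, a log2 change of 5.60 ± 0.41 (adjusted p = 1.69e-04). Tgm1, a transglutaminase, rose by 6.76 ± 0.40 (adjusted p = 7.85e-05), with 0.505, 0.386 and 0.516 CPM in sham and 24.9, 62.2 and 67.0 CPM in ICH+P7C3-A20. In these genes the groups did not overlap, and replicate 1 was the lowest of the treated libraries each time. Serpina3n, a secreted protease inhibitor, rose by 4.26 ± 0.33 and Timp1, an inhibitor of metalloproteinases, by 4.64 ± 0.29. Vim (2.94), Cd44 (2.07), Steap4 (2.75, or 3.56 without sham 1) and the pentraxin Ptx3 (4.01) rose as well, while Cd109 (1.66, adjusted p = 0.0508), Tm4sf1 (0.70) and Hspb1 (0.47) did not pass the test. Cd109 was called higher without sham 1 (2.31), without ICH+P7C3-A20 1, without both libraries that stood apart and in DESeq2, and Tm4sf1 without both libraries. Against ICH, with the same treated mice, 16 of the 20 were lower (6.05% of all genes were) and none higher. In bulk tissue, fewer cells of a type and less RNA per cell cannot be told apart, here and for every cell type list that follows. The summed CPM of the astrocyte markers Aldh1l1, Aqp4, Slc1a3 and Gja1 was 701 to 804 in sham, 989 to 1134 in ICH+P7C3-A20 and 1254 to 1482 in ICH. limma on log2(FPKM + 1) called 12 of the 20.

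**Figure D3:**
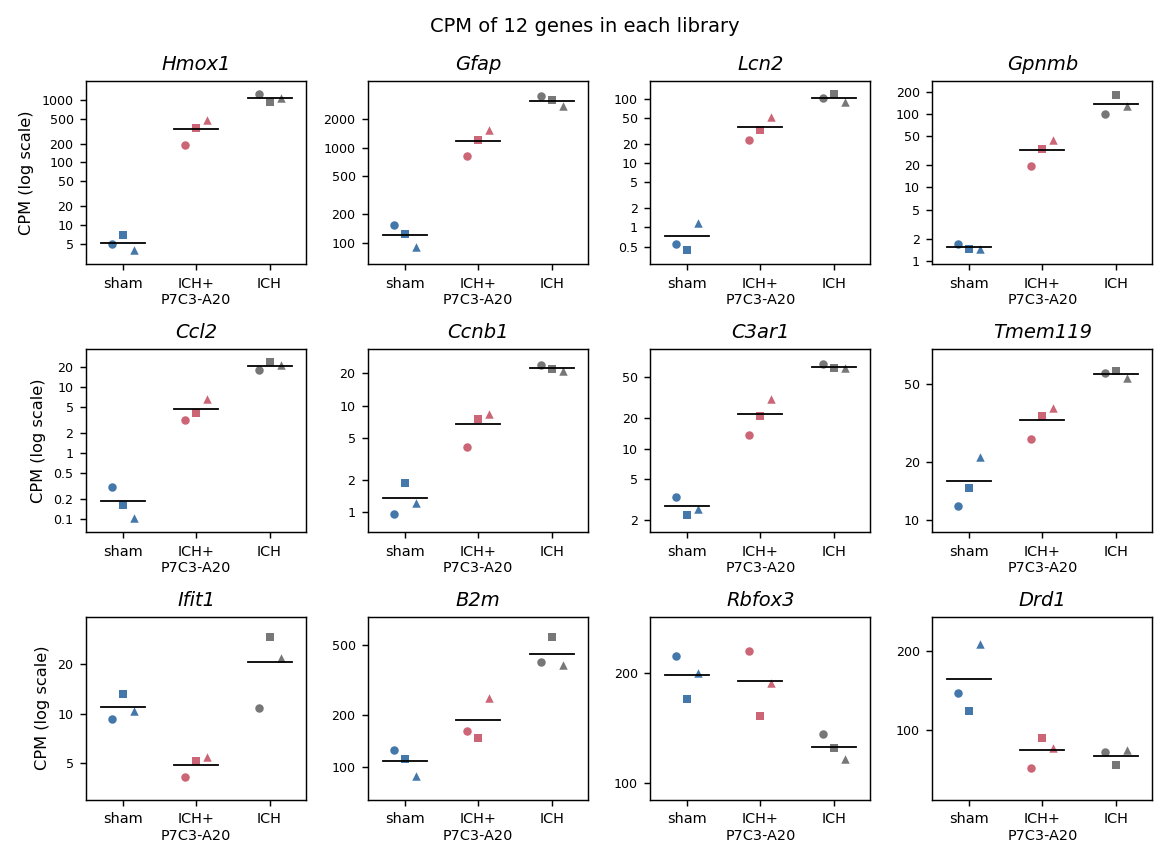
CPM on a log scale for 12 genes in each of the 9 libraries, with 1 point a library and a bar at the group mean. ICH+P7C3-A20 lies between sham and ICH for Hmox1, Gfap, Lcn2, Gpnmb, Ccl2, Ccnb1, C3ar1 and Tmem119, below both group means for Ifit1 (4.12, 5.15 and 5.41 CPM), and next to ICH for Drd1 (72.1, 94.0 and 85.8 CPM).

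Microglial transcripts were higher than in sham across both states. Of 20 disease-associated microglia markers, genes that microglia raise near lesions, 16 rose and none fell, with a median log2 change of 1.46 (ICH 2.51). Gpnmb, a transmembrane glycoprotein of lipid-laden phagocytes, stood at 1.70, 1.45 and 1.49 CPM in sham and at 19.5, 32.9 and 44.1 CPM in ICH+P7C3-A20. The treated libraries were all above sham, with a log2 change of 4.38 ± 0.33 (adjusted p = 1.69e-04). Lgals3, the galactose-binding lectin galectin-3, went from 0.596, 0.644 and 1.001 to 9.21, 27.8 and 23.8 CPM (4.75 ± 0.42, adjusted p = 3.96e-04). Spp1, osteopontin, had 15.99, 14.9 and 6.29 CPM in sham and 60.2, 216 and 246 in ICH+P7C3-A20, replicate 1 being well below the other two (3.82 ± 0.55, adjusted p = 0.00499). Trem2 (1.61) and its adaptor Tyrobp (1.9004) rose, and Apoe (0.46, adjusted p = 0.105) and Lpl (0.01, 0.991), which belong to the same state, did not pass the test. Of 13 homeostatic markers, which resting microglia express, 11 rose and none fell, with a median of 1.03 (ICH 1.84). Fcrls, an Fc receptor-like gene, rose from 15.2, 16.9 and 21.3 to 57.7, 101 and 113 CPM (2.34 ± 0.23), and Cx3cr1, the fractalkine receptor, from 52.7, 48.7 and 50.6 to 94.0, 99.6 and 146 CPM (1.16 ± 0.16, adjusted p = 0.00237). Tmem119 rose by 1.05 ± 0.20 (adjusted p = 0.0136), a call that was lost without sham 2 or ICH+P7C3-A20 3 (adjusted p = 0.0517 to 0.0664). The homeostatic count was 7 without sham 1 or sham 2 and 6 without ICH+P7C3-A20 3.

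Markers of monocytes and macrophages rose in 11 of 16 tested and fell in none, with a median of 2.12 (ICH 3.78). Msr1, the macrophage scavenger receptor, stood at 0.144, 0.294 and 0.197 CPM in sham and 5.17, 13.4 and 14.7 CPM in ICH+P7C3-A20. The groups did not overlap, at a log2 change of 5.70 ± 0.43 (adjusted p = 1.64e-04). Lyz2, the myeloid lysozyme, went from 6.21, 8.22 and 6.93 to 39.7, 67.4 and 92.5 CPM (3.22 ± 0.28), and Arg1, arginase 1, from 0.379, 0.184 and 0.212 to 6.42, 9.42 and 10.9 CPM (5.10 ± 0.42), although limma with array weights did not call Arg1. Ms4a7 (2.96), Adgre1 (2.16) and Mrc1 (1.305, lost without sham 2, sham 3, ICH+P7C3-A20 1 or ICH+P7C3-A20 3 (adjusted p = 0.0554 to 0.101)) rose, and Ly6c2 (1.13, adjusted p = 0.410; 1.86 without sham 2 and 0.49 without ICH+P7C3-A20 3) and Cd163 (-0.40, 0.497) did not pass the test. Summed over Lyz2, Ccr2, Ly6c2 and Ms4a7, CPM was 7.43 to 10.6 in sham, 43.3, 72.5 and 100.4 in ICH+P7C3-A20 and 264 to 356 in ICH. Summed microglial markers were 129 to 143, then 231, 239 and 343, then 372 to 455 CPM. Both sums were lowest in replicate 1 among the treated mice. Of 8 neutrophil markers, 2 rose: Csf3r, the G-CSF receptor (1.54, adjusted p = 0.00554), and Mmp8. Mmp8 rests on a few counts in sham 3 alone, so no size is given for it. Of 4 lymphocyte markers tested, Cd4 fell (-0.98 ± 0.22, adjusted p = 0.0256); the call was lost without sham 1, sham 3, ICH+P7C3-A20 1 or ICH+P7C3-A20 2 (adjusted p = 0.0571 to 0.0913), and without both libraries that stood apart; 1 other member was called higher in that case and without ICH+P7C3-A20 1. Cd3e had at most 0.253 CPM in any sham or treated library.

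Complement transcripts, which tag debris and synapses for uptake, rose in 12 of 16 tested genes and fell in none, with a median of 1.81 (ICH 3.11). C3ar1, the receptor of C3a, stood at 3.37, 2.24 and 2.53 CPM in sham and at 13.7, 20.95 and 30.9 CPM in ICH+P7C3-A20, without overlap (3.01 ± 0.27, adjusted p = 3.52e-04). C5ar1, the receptor of C5a, rose by 3.58 ± 0.32. C1qa, a chain of the initiator C1q, went from 26.6, 28.8 and 38.2 to 81.2, 115 and 151 CPM (1.89 ± 0.21, adjusted p = 7.91e-04), and the central component C3 rose by 3.67 and C4b by 2.16. C2 (0.37), Cfb (0.73), Cfp (0.17) and Serping1 (1.25) did not pass the test. Leaving out any 1 of the 6 libraries left 12 members called higher.

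Among the signals that draw and activate leukocytes, chemokine ligands rose most. Of 19 tested, 13 rose and none fell, with a median of 2.08 (ICH 3.79); without ICH+P7C3-A20 3 the count was 8. Ccl2, the monocyte attractant, stood at 0.307, 0.166 and 0.106 CPM in sham and 3.15, 3.998 and 6.53 CPM in ICH+P7C3-A20. Its treated values were all above sham and highest in replicate 3 (4.57 ± 0.39, adjusted p = 2.58e-04). Ccl12 rose by 2.89 ± 0.33, Cxcl16 by 2.03 ± 0.23, and Cxcl10, which interferon also induces, from 1.10, 0.423 and 0.561 to 5.71, 3.86 and 6.57 CPM (2.95 ± 0.36, adjusted p = 0.00116). Cxcl2, a neutrophil attractant, had no count in sham and was at least 14.1-fold above sham, where a floor of 3 counts in that group as a whole stands in for the 0 (adjusted p = 0.0340), a call lost without sham 1, sham 2, sham 3, ICH+P7C3-A20 2 or ICH+P7C3-A20 3 (adjusted p = 0.0610 to 0.116). Cx3cl1, the fractalkine that neurons make, did not pass the test (-0.17). Of 11 chemokine receptors 4 rose, among them Ccr1 (2.99), Ccr2 (2.19) and Cx3cr1. The Ccr2 call was lost without sham 2 or ICH+P7C3-A20 3 (adjusted p = 0.0572 to 0.0887).

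Cytokine genes gave fewer calls, 4 of 14 higher, against 4.58% of all genes, and none lower, with a median of 1.41. Without ICH+P7C3-A20 1, and without both libraries that stood apart, the count was 8. Tnf had no count in sham and 0.354, 0.527 and 0.597 CPM in ICH+P7C3-A20, at least 28.9-fold higher against the floor (adjusted p = 9.34e-04), which is a low level in every treated library. Tgfb1, an anti-inflammatory and matrix-inducing cytokine, rose from 6.08, 7.595 and 3.88 to 17.3, 17.0 and 27.5 CPM (1.82 ± 0.28, adjusted p = 0.00401). Clcf1, a ligand of the gp130 receptor, rose by 2.44 ± 0.26, with counts that are uncertain for shared sequence, and Osm, another such ligand, by 2.32 ± 0.55 (1.67 without ICH+P7C3-A20 3), a call lost without sham 1, sham 2, sham 3, ICH+P7C3-A20 2 or ICH+P7C3-A20 3 (adjusted p = 0.0505 to 0.145). Il1b, the inflammasome's main product, stood at 0.144, 0 and 0.0607 CPM in sham and 0.104, 1.08 and 0.501 in ICH+P7C3-A20; the groups overlapped and the adjusted p was 0.111. Il1a (1.01, 0.0545) and Il18 (0.16, 0.641) did not pass the test either.

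Receptors of damage signals rose in 11 of 16 tested genes (median 1.64). Tlr2, a receptor of lipoproteins and damage molecules, stood at 0.920, 0.828 and 1.43 CPM in sham and 4.71, 8.66 and 12.1 CPM in ICH+P7C3-A20 (2.996 ± 0.34, adjusted p = 8.72e-04), and Tlr13 rose by 2.43 ± 0.22. Tlr4 (1.35), Tlr7 (1.76) and Cd14 (1.52) rose, and Tlr3 (0.58) and Tlr9 (0.65) did not pass the test. limma on log2(FPKM + 1) called 4 of the 16. Of 12 inflammasome genes 6 rose (3 without ICH+P7C3-A20 3), among them the sensor Nlrp3 (1.94 ± 0.32), the adaptor Pycard (1.25 ± 0.21) and the pore former Gsdmd (1.19, lost without sham 1, sham 2, ICH+P7C3-A20 2 or ICH+P7C3-A20 3 (adjusted p = 0.0729 to 0.0934)); Casp1 (1.16, adjusted p = 0.0642) did not pass. limma on log2(FPKM + 1) called 0 of the 12. Downstream, 4 of 12 NF-kappaB genes rose, against 4.58% of all genes. Bcl3, an atypical inhibitor protein of the family, went from 0.902, 0.515 and 0.849 to 3.92, 6.79 and 8.63 CPM (3.09 ± 0.32, adjusted p = 5.95e-04). The feedback inhibitor Nfkbia rose as well (0.70), a call lost without sham 2 or ICH+P7C3-A20 3 (adjusted p = 0.0524 to 0.0785). Nfkbiz (0.72) and the subunit Nfkb2 (0.95) also rose. Both calls were lost without sham 1, ICH+P7C3-A20 2 or ICH+P7C3-A20 3 (adjusted p = 0.0503 to 0.0887 for Nfkbiz and 0.0521 to 0.0587 for Nfkb2). The count was 2 without sham 1 or ICH+P7C3-A20 2 and 1 without ICH+P7C3-A20 3. In the gp130 and STAT3 list, which shares Bcl3, 4 of 12 rose. Socs3, the feedback inhibitor that STAT3 induces, stood at 1.05, 1.21 and 1.47 CPM in sham and 6.67, 12.7 and 12.96 CPM in ICH+P7C3-A20, with no overlap (3.11 ± 0.26, adjusted p = 2.02e-04); Osmr, a receptor chain of oncostatin M, rose by 1.70 ± 0.30, and Stat3 itself had 0.51 (adjusted p = 0.0590).

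Of 26 listed genes of dividing cells 22 rose, against 4.58% of all genes tested, none fell, and the median log2 change was 1.72 (ICH 3.27). Rrm2, the ribonucleotide reductase subunit that limits nucleotide supply in S phase, stood at 1.25, 2.04 and 2.20 CPM in sham and 6.77, 18.2 and 17.0 CPM in ICH+P7C3-A20. Replicate 1 was the lowest treated library, still above all sham libraries, and the log2 change was 2.93 ± 0.35 (adjusted p = 0.00111). Tpx2, a spindle assembly factor, rose by 2.27 ± 0.25, and Ccnb1, the mitotic cyclin B1, from 0.956, 1.89 and 1.23 to 4.06, 7.45 and 8.42 CPM (2.29 ± 0.31), although its counts are uncertain for shared sequence. Mki67 (2.24), Top2a (2.39), Cdk1 (2.54) and Foxm1 (1.94) rose as well. Pcna (0.57, adjusted p = 0.0683), Tyms (0.76, 0.288), Mcm5 (0.82, 0.0721) and Ccne1 (0.57, 0.374) did not pass the test. Against ICH 24 of the 26 were lower and none higher, with 15 lower without ICH 1 or ICH 2 and 14 without ICH 3. limma on log2(FPKM + 1) called 10 of the 26. The list holds markers of S phase and mitosis, and the deposited table's wider pathways had smaller shares: 22 of 122 (18%, median 0.12) were higher in its cell cycle pathway and 4 of 35 (11.4%, median 0.32) in DNA replication, against 7.99% of all tested genes with a pathway. Of 24 p53 target and apoptosis genes 4 rose (median 0.31): Cdkn1a, the cell cycle inhibitor p21 (0.80 ± 0.13, adjusted p = 0.00517), Casp8 (1.46 ± 0.25), Bcl2l11 (1.04, lost without ICH+P7C3-A20 3 (adjusted p = 0.0520)) and Ccng1 (0.45, lost without sham 1, sham 2, sham 3, ICH+P7C3-A20 2 or ICH+P7C3-A20 3 (adjusted p = 0.0699 to 0.121)), with 2 calls without ICH+P7C3-A20 3. Bax (0.29), Bbc3 (0.02) and Trp53 (0.17) did not pass. The deposited table's p53 signalling pathway had 18 of 70 (25.7%, median 0.13) higher.

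Of 20 listed phagocytic and lysosomal genes 14 rose, with none lower and a median of 1.022 (ICH 2.07). Cd68, a lysosomal glycoprotein of phagocytes, stood at 15.8, 15.1 and 12.98 CPM in sham and 62.9, 63.6 and 121 CPM in ICH+P7C3-A20, with replicate 3 the highest (2.497 ± 0.25, adjusted p = 5.17e-04). Gusb, beta-glucuronidase, went from 12.6, 13.4 and 11.5 to 24.7, 40.2 and 42.5 CPM (1.52 ± 0.18, adjusted p = 0.00108), and Ctsd, cathepsin D, rose by 2.02 ± 0.21, with counts uncertain for shared sequence. Ctsz (1.72) and Lgmn (1.26) rose; Lamp1 (0.19) and the regulators Tfeb (0.16) and Mitf (0.07) did not pass the test. The count was 8 without sham 1 and 9 without ICH+P7C3-A20 3, and 1 member was lower without sham 3. limma on log2(FPKM + 1) called 6 of the 20. In the deposited table's wider pathways, 26 of 118 (22%, median 0.15) were higher in lysosome and 33 of 142 (23.2%, median 0.22) in phagosome, against 7.99% of all tested genes with a pathway. In the lipid export list 2 of 13 rose, against 4.58% of all genes (4 rose without both libraries that stood apart). Abca1, the cholesterol exporter, went from 51.4, 43.0 and 47.3 to 75.1, 102 and 131 CPM (1.13 ± 0.17, adjusted p = 0.00405), and Apoc2 had no count in sham and was at least 74.2-fold higher against the floor (adjusted p = 8.30e-04). Genes of cholesterol synthesis gave 0 calls of 17 in edgeR, with 7 lower and none higher at unadjusted p under 0.05, 2 lower in DESeq2 and 0 in limma, and 1 lower without ICH+P7C3-A20 1 or 2; the median was -0.31 beside -0.35 in ICH. Insig1, a brake on sterol synthesis, stood at 52.3, 59.4 and 56.9 CPM in sham and 43.1, 45.8 and 34.4 in ICH+P7C3-A20 (-0.45 ± 0.12, adjusted p = 0.0523).

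Vessel and matrix genes were partly raised, in lists to be set against 4.58% of all genes tested called higher. Vwf, the clotting carrier of endothelium, stood at 15.5, 11.3 and 17.7 CPM in sham and 42.9, 46.5 and 52.4 CPM in ICH+P7C3-A20, with no overlap (1.67 ± 0.16, adjusted p = 3.99e-04). Its call was not lost without any library. Of 15 endothelial and barrier genes, which form the vessel wall, 6 rose (median 0.54), with 1 call left without sham 1 or without ICH+P7C3-A20 3, against 10 without ICH+P7C3-A20 1. Pecam1 (0.82) and Cdh5 (0.96) were among those lost, at adjusted p = 0.0635 and 0.0530 without sham 1 and 0.0605 and 0.0740 without ICH+P7C3-A20 3, and the junction gene Cldn5 had 0.61 (adjusted p = 0.279). Of 11 adhesion and leak genes 4 rose: Selp, P-selectin (3.51 ± 0.53, adjusted p = 0.00387), Angpt2 (1.51), Icam1 (1.77, lost without sham 2 or ICH+P7C3-A20 3 (adjusted p = 0.0505 to 0.0599)) and Vcam1 (0.55, lost without sham 1, ICH+P7C3-A20 2 or ICH+P7C3-A20 3 (adjusted p = 0.0763 to 0.105)), with 2 calls without ICH+P7C3-A20 3 and 7 without ICH+P7C3-A20 1. limma on log2(FPKM + 1) called 2 of the 15 endothelial and barrier genes and 0 of these 11. The basement membrane collagens Col4a1 and Col4a2 rose by 1.08 ± 0.15 and 0.71 ± 0.11, and Fn1, fibronectin, from 53.5, 62.6 and 37.6 to 149, 159.6 and 225 CPM (1.80 ± 0.21, adjusted p = 9.70e-04). Of 18 fibroblast and matrix genes 7 rose (median 0.92), while Col1a1 (1.13, adjusted p = 0.206), Lum (1.18, 0.0940) and Postn (-0.45, 0.410) did not pass. Matrix proteases and their inhibitors, taken as 1 list, rose in 10 of 18 (median 1.34). Adam8, a membrane protease of leukocytes, went from 2.71, 4.52 and 3.37 to 13.9, 24.6 and 27.4 CPM (2.64 ± 0.26, adjusted p = 4.78e-04), and Plau, urokinase, rose by 1.92 ± 0.28. Mmp3, stromelysin 1, had no count in sham and was at least 19.1-fold higher against the floor (adjusted p = 0.0104). Of 11 pericyte and smooth muscle genes 1 rose (3 without ICH+P7C3-A20 1), Tagln, transgelin (1.43 ± 0.28), a call lost without sham 1, sham 2, ICH+P7C3-A20 2 or ICH+P7C3-A20 3 (adjusted p = 0.0558 to 0.0725).

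Interferon-stimulated genes, which transcription factors of the STAT and IRF families switch on through a GAAA-type response element, gave no higher call against sham in ICH+P7C3-A20. Promoter windows of 4 of them are shown because they hold its core letters and the genes differed between ICH+P7C3-A20 and ICH. The windows cover 250 bases before the start of the gene, from RefSeq on GRCm38.p6, and lie at chr12:26456453-26456702 (minus strand) for Rsad2, chr19:34640639-34640888 (plus strand) for Ifit1, chr5:120907526-120907775 (minus strand) for Oas1a and chr4:156200819-156201068 (minus strand) for Isg15. They read 5' to 3' along the gene, and capitals mark each match on either strand to the core, which is GAAA, any 2 bases and GAAA again. The gene starts used are those of RefSeq, and the position given above for Ifit1 begins inside its window.
Rsad2: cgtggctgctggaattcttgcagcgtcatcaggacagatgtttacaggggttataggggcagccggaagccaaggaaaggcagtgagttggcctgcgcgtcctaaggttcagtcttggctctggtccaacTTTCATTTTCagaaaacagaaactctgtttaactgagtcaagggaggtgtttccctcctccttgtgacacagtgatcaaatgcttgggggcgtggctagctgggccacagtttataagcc
Ifit1: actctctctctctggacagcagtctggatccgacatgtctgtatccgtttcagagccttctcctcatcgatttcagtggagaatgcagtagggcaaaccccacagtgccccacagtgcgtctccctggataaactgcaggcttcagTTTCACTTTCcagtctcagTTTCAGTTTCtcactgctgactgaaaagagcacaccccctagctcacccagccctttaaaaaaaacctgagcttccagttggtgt
Oas1a: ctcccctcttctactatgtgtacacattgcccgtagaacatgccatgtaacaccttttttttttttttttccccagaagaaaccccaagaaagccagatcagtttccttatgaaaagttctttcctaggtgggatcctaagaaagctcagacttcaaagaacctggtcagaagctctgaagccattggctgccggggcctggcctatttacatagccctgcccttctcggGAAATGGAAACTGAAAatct
Isg15: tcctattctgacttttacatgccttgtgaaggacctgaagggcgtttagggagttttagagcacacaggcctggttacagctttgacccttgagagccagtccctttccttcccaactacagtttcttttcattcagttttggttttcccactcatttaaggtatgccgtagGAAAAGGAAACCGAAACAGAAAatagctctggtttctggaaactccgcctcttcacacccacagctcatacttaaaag

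The core letters occurred in 9 of the 16 interferon-stimulated genes with a window (56.2%), against 3.46% of 27025 genes with a window and 3.3% of the 14109 tested genes with one. They occurred in 2 of 10 MHC class I genes, 3 of 18 reactive astrocyte genes (16.7%) and 2 of 13 chemokines (15.4%), in 1 of 21 cell cycle genes, 1 of 16 disease-associated microglia markers and 0 of 9 complement genes. The share was 4.48% of the genes called higher and 4.88% of those called lower against sham, and 6.67% of those called lower against ICH. A match is a description of the letters and not a bound site. Other searches gave TTTGAA in 7 of 21 cell cycle genes (33.3%, against 13.8% of tested genes) and TTCNNNGAA in 1 of 12 gp130 and STAT3 genes (8.33%, against 7.24%). The motifs, searched on both strands, and the windows shown were chosen after the expression values were seen.

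None of the 22 interferon-stimulated genes was called higher against sham and 1 was called lower (1 was higher without sham 3), with a median log2 change of -0.27; at unadjusted p under 0.05 edgeR had 1 higher and 6 lower, DESeq2 called 0 higher and 4 lower, and limma on log2(FPKM + 1) called 0. Ifit1, an RNA-binding antiviral protein, stood at 9.26, 13.1 and 10.4 CPM in sham, 4.12, 5.15 and 5.41 in ICH+P7C3-A20 and 10.9, 29.3 and 21.6 in ICH. The treated values were all below sham, but the change of -1.16 ± 0.31 did not pass the test (adjusted p = 0.0590). Oasl2 had 21.2, 23.4 and 17.5 CPM in sham and 11.2, 11.3 and 13.9 in ICH+P7C3-A20 (-0.77 ± 0.26, adjusted p = 0.134), also without overlap and also not called. Ifi44 was the gene called lower (-1.45 ± 0.34, adjusted p = 0.0363), and the call was lost without sham 1, sham 2, ICH+P7C3-A20 1, ICH+P7C3-A20 2 or ICH+P7C3-A20 3 (adjusted p = 0.0598 to 0.142). Mx1 had 1.48, 1.09 and 1.08 CPM in sham and 2.02, 2.36 and 2.83 in ICH+P7C3-A20 (0.99 ± 0.35, adjusted p = 0.163). Its treated values were all above sham, and it was not called either. Without both libraries that stood apart, 2 genes were called higher and 1 lower, and the median was 0.03.

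In ICH, against the same sham mice, 19 of these 22 genes were higher (15.6% of all genes were) and the median was 1.36. Against ICH, all 22 were lower in ICH+P7C3-A20 (6.05% of all genes were), with a median of -1.79. That count was 12 without ICH 2, 14 without ICH 3 and 16 to 22 without any other 1 of the 6 libraries, 22 in DESeq2, 20 in limma on log2(FPKM + 1) and 21 without both libraries that stood apart. Genes of MHC class I presentation, which load peptides for CD8 T cells, gave no call against sham either. Of 12 tested, 0 were called against sham in edgeR, with 6 higher at unadjusted p under 0.05, 1 higher in DESeq2 and 0 in limma, and 1 higher in edgeR without sham 3 or ICH+P7C3-A20 1. In ICH 12 were higher, and 11 were lower in ICH+P7C3-A20 than in ICH, 7 without ICH+P7C3-A20 1 or ICH 2. B2m, the light chain, stood at 125, 112 and 89.1 CPM in sham, 161.4, 146 and 249 in ICH+P7C3-A20 and 403, 556 and 388 in ICH. The treated libraries lay above sham, with replicate 3 the highest, and the change of 0.77 ± 0.22 missed the threshold (adjusted p = 0.0762). H2-D1, a heavy chain, had 0.64 ± 0.21 (adjusted p = 0.128), and it belongs to a family of near-identical genes whose separate counts are uncertain. The class I median was 0.41 against 1.96 in ICH, and without both libraries that stood apart it was 0.79 with 4 genes called higher. Of 8 class II genes, which present to CD4 T cells, 4 rose. H2-Ab1, a class II beta chain, went from 1.97, 1.31 and 0.713 to 3.62, 6.65 and 5.74 CPM, with 24.1, 34.3 and 21.2 in ICH (2.01 ± 0.36, adjusted p = 0.00906), and H2-Aa, H2-Eb1 and Ctss rose by 1.89, 1.63 and 1.23. H2-Aa and H2-Eb1 were lost without ICH+P7C3-A20 3 (adjusted p = 0.0528 and 0.0575) and Ctss without sham 1 or ICH+P7C3-A20 3 (adjusted p = 0.0601 to 0.0611). Cd74 (1.60, adjusted p = 0.0680) did not pass, and limma on log2(FPKM + 1) called 1 of the 8 class II genes.

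**Figure D4:**
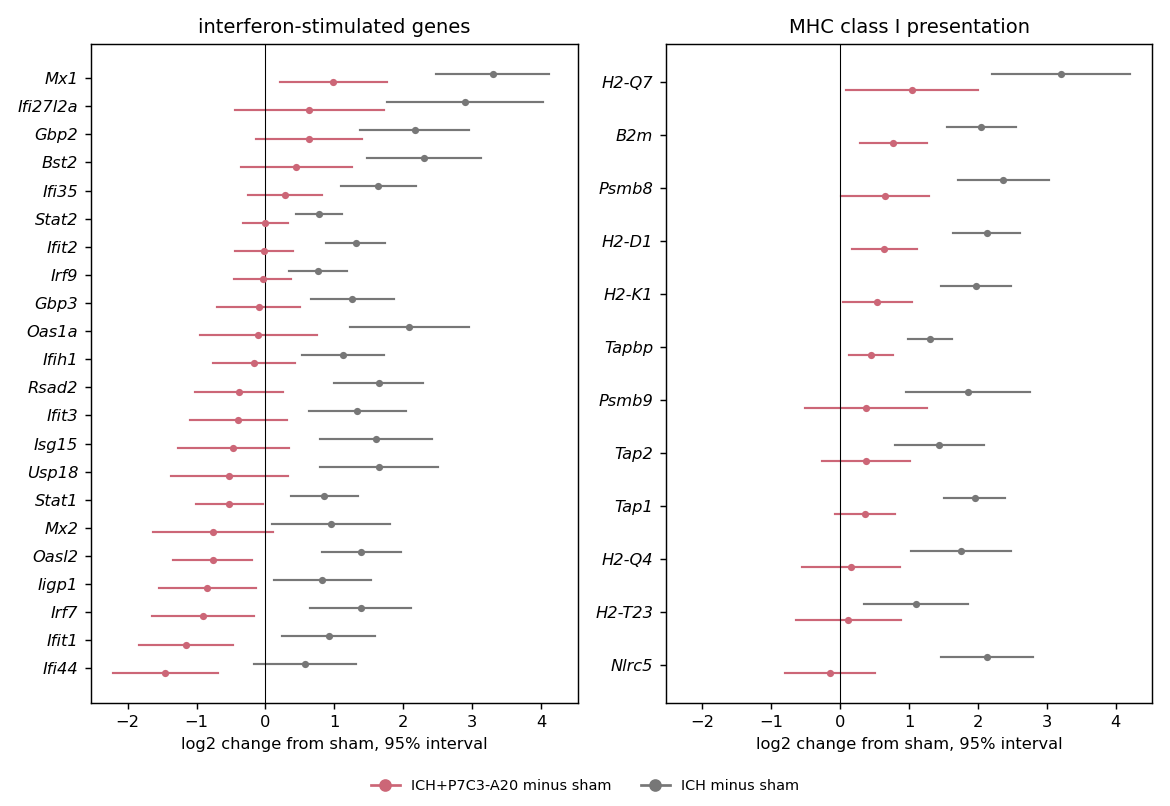
Log2 change from sham with its 95% interval (x axis) for each tested interferon-stimulated gene and MHC class I gene, red for ICH+P7C3-A20 and grey for ICH, both against the same 3 sham mice. The red points lie to the left of the grey point of the same gene in every row, from -1.45 at Ifi44 to 0.99 at Mx1 in the first panel.

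Neuronal genes were read by type. The pan-neuronal and synaptic list had 0 of 21 genes called in edgeR, with 2 higher and 3 lower at unadjusted p under 0.05, 1 higher and 2 lower in DESeq2 and 0 in limma, and a median of -0.10 beside -0.65 in ICH. Without ICH+P7C3-A20 1 it had 3 lower, without sham 3 1 higher and 1 lower, and without both 1 higher and 4 lower. Rbfox3, the nuclear marker NeuN, stood at 222, 169 and 199.6 CPM in sham, 229, 153 and 188 in ICH+P7C3-A20 and 136, 124 and 117 in ICH. Sham and treated values overlapped, and the 95% interval of the log2 difference was -0.39 to 0.28 (-0.06 ± 0.15, adjusted p = 0.908). Snap25 (-0.01), Syt1 (-0.13) and Map2 (0.12) did not pass. Against ICH 5 of the 21 were higher (2.69% of all genes were), but 0 without ICH+P7C3-A20 1 or without any 1 of the ICH libraries, and 8 without ICH+P7C3-A20 2; edgeR had 18 higher at unadjusted p under 0.05 and DESeq2 16. ICH+P7C3-A20 1, the library with high cortical transcripts, had the highest summed neuron markers of all, 4351 CPM against 3072 to 3621 in sham; the other treated libraries had 2643 and 2966.

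Genes of striatal projection neurons, the main cells of the caudate and putamen, were called lower in part: 4 of 16 fell (0.744% of all genes did), none rose, and the median was -0.67, beside -0.77 in ICH. Drd1, the dopamine D1 receptor, stood at 139, 118 and 213 CPM in sham, 72.1, 94.0 and 85.8 in ICH+P7C3-A20 and 82.5, 73.8 and 84.6 in ICH. The treated values were all below sham and overlapped those of ICH, with a log2 change of -0.90 ± 0.19 (adjusted p = 0.0240). That call was lost without ICH+P7C3-A20 1 or ICH+P7C3-A20 3 (adjusted p = 0.0587 to 0.0902). Tac1, the substance P precursor, went from 93.3, 94.1 and 145 to 75.2, 65.7 and 66.7 CPM (-0.68 ± 0.16, adjusted p = 0.0379), a call lost without ICH+P7C3-A20 2 or ICH+P7C3-A20 3 (adjusted p = 0.112 to 0.144). Pdyn, the dynorphin precursor, had -0.60 ± 0.14 (adjusted p = 0.0404), a call lost without each of the 6 libraries, at adjusted p = 0.0582 to 0.159. At unadjusted p under 0.05, 15 of the 16 were lower and DESeq2 called 13 lower, whereas limma on log2(FPKM + 1) called 0; the count in edgeR was 1 to 6 without a library and 4 without both that stood apart. Against ICH 0 of the 16 were called in edgeR, with 1 higher at unadjusted p under 0.05 and 0 in DESeq2 and limma, at a median of 0.09. The striatal markers Drd1, Drd2 and Adora2a summed to 537, 446 and 653 CPM in sham and 254, 319 and 380.4 in ICH+P7C3-A20. The cortical markers Neurod6, Tbr1 and Rorb summed to 43.9, 41.2 and 70.4 in sham and 169, 70.5 and 90.6 in ICH+P7C3-A20, and the part of the region sampled in the striatal values was not tested.

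Inhibitory neuron genes gave 3 lower calls of 11 and none higher. Slc32a1, the vesicular transporter of GABA and glycine, fell from 186, 179 and 173 to 96.8, 101 and 109 CPM with 109, 82.2 and 93.1 in ICH. The groups did not overlap (-0.81 ± 0.11, adjusted p = 0.00255), and no left-out library ended the call, although the gene shares sequence with another. Gad1, which makes GABA, fell by 0.60 on the log2 scale, from 466, 480.3 and 453 to 303, 319 and 303 CPM (adjusted p = 0.0243), a call lost without sham 1, sham 2, ICH+P7C3-A20 2 or ICH+P7C3-A20 3 (adjusted p = 0.0573 to 0.101). Reln, reelin, had -0.58 ± 0.14 (adjusted p = 0.0400), lost without sham 1, sham 3, ICH+P7C3-A20 1, ICH+P7C3-A20 2 or ICH+P7C3-A20 3 (adjusted p = 0.0510 to 0.117) and without both libraries that stood apart. Sst (-0.06), Pvalb (-0.05) and Vip (1.43, adjusted p = 0.105), which mark interneuron classes, did not pass. In the same libraries the striatal list had a median of -0.67. The part of the region sampled in the inhibitory neuron values was not tested. The inhibitory neuron list had 1 lower call without sham 1 or ICH+P7C3-A20 2 or 3, and 2 higher without sham 3 or ICH+P7C3-A20 2. Of 20 ion channel subunits 1 fell, Kcnd2, an A-type potassium channel, from 162, 141 and 174 to 94.7, 92.6 and 107 CPM with 92.2, 84.4 and 76.6 in ICH (-0.70 ± 0.11, adjusted p = 0.00540). The list's median was -0.16 beside -0.68 in ICH, and 3 were lower without ICH+P7C3-A20 1, 2 without sham 2 and 5 without both libraries that stood apart. Cortical neuron genes had 0 of 13 called in edgeR, with 5 higher and 1 lower at unadjusted p under 0.05, 1 higher and 1 lower in DESeq2 and 0 in limma, and a median of 0.70. Tbr1, a transcription factor of deep cortical layers, had 19.3, 11.0 and 37.1 CPM in sham and 107, 33.5 and 44.0 in ICH+P7C3-A20 (1.45 ± 0.51, adjusted p = 0.172). Its treated mean rests on replicate 1: without it the change was 0.78. Cortical genes called higher were 3 without sham 3 and 4 without both libraries that stood apart.

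**Figure D5:**
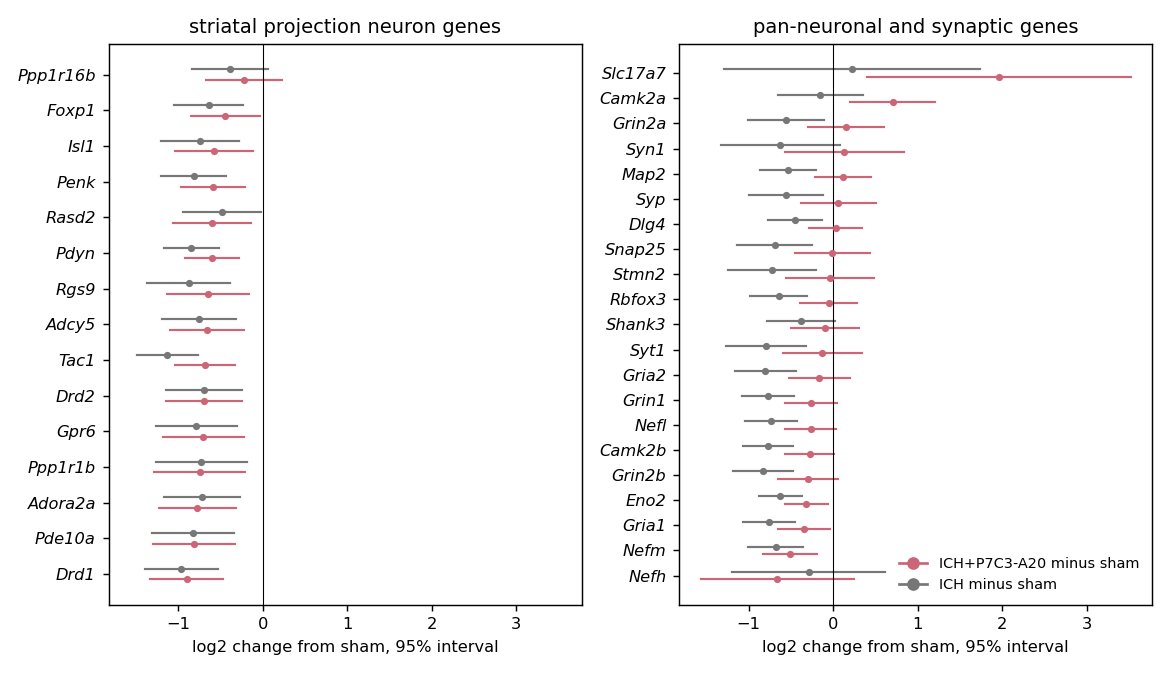
Log2 change from sham with its 95% interval (x axis) for 15 of the 16 striatal projection neuron genes and for 21 pan-neuronal and synaptic genes, red for ICH+P7C3-A20 and grey for ICH, both against the same 3 sham mice. The red and grey points lie close together for the striatal genes (list medians -0.67 and -0.77), and apart for most pan-neuronal genes (medians -0.10 and -0.65).

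The genes of NAD synthesis, the process to which P7C3-A20 has been linked, gave 0 calls of 18 in edgeR, with 1 higher and 2 lower at unadjusted p under 0.05, 1 lower in DESeq2 and 0 in limma, and a median of -0.05. Nampt stood at 54.1, 55.4 and 53.7 CPM in sham, 49.4, 56.1 and 47.2 in ICH+P7C3-A20 and 63.9, 68.7 and 72.9 in ICH. Sham and treated libraries overlapped, the log2 difference was -0.10 ± 0.10 with a 95% interval of -0.31 to 0.11, and the ICH mice were above both (0.33 from sham, adjusted p = 0.0267; ICH+P7C3-A20 minus ICH -0.43 ± 0.10, adjusted p = 0.0229, lost without ICH 1, ICH 2, ICH 3, ICH+P7C3-A20 1 or ICH+P7C3-A20 3 (0.0526 to 0.101)). Nmnat2, the neuronal enzyme of the final step, had -0.14 (adjusted p = 0.737). Of 18 NAD-consuming enzymes 2 rose, where 4.58% of all genes tested did: Bst1, an ADP-ribosyl cyclase of myeloid cells, from 0.271, 0.129 and 0.349 to 0.729, 1.64 and 2.45 CPM (2.67 ± 0.49, adjusted p = 0.0102), and Parp3 (1.43), which was lost without sham 1, sham 2, ICH+P7C3-A20 2 or ICH+P7C3-A20 3 (adjusted p = 0.0636 to 0.0919). Sarm1 (0.20), Sirt1 (-0.25) and Cd38 (0.33) did not pass. Oxidative phosphorylation genes had 0 of 25 called in edgeR, with 1 higher and 4 lower at unadjusted p under 0.05, 1 lower in DESeq2 and 0 in limma, at a median of -0.19.

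Myelin genes had 0 of 14 called against sham in edgeR, at unadjusted p under 0.05, in DESeq2 and in limma. Mbp, myelin basic protein, stood at 4287, 5244 and 4606 CPM in sham and 2843, 5324 and 5927 in ICH+P7C3-A20, with the lowest value in replicate 1 and an interval of -0.56 to 0.55 for the log2 difference. The list median was -0.33, and -0.06 without both libraries that stood apart. Immediate early genes, a readout of recent neuronal activity, had 0 of 19 called in edgeR, with 2 higher and 2 lower at unadjusted p under 0.05, 2 higher in DESeq2 and 0 in limma, 2 higher without sham 3 and 1 lower without ICH+P7C3-A20 1, at a median of 0.08 beside -0.72 in ICH. Egr1, an activity-induced transcription factor, stood at 269.9, 342 and 406 CPM in sham, 297, 233 and 258 in ICH+P7C3-A20 and 149, 139 and 124 in ICH. Treated and sham values overlapped (-0.37 ± 0.16, adjusted p = 0.240), while the treated libraries were all above ICH (0.94 ± 0.16, adjusted p = 0.00829). Jun, which injury induces, had 32.0, 35.5 and 26.5 CPM in sham, 44.4, 39.0 and 43.9 in ICH+P7C3-A20 and 60.7, 70.1 and 71.9 in ICH (0.44 ± 0.12, adjusted p = 0.0764 against sham). Of the newborn neuron genes, for which the compound's series is known, Dcx had 0.31 (adjusted p = 0.287) and Sox11 0.19 (0.561). In this list 1 of 16 rose, where 4.58% of all genes tested did. It was the progenitor filament Nes (1.31 ± 0.24), a call lost without sham 1 or ICH+P7C3-A20 3 (adjusted p = 0.0541 to 0.0571).

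Stress lists differed in their share of calls, set against 4.58% of all genes higher, and most of these calls were lost without 1 library or another. Of 9 metallothionein and zinc transporter genes 4 rose, Mt1, Mt2, Mt3 and Slc39a1, by 0.70, 0.87, 0.64 and 0.64; Mt2, a metal-binding protein induced by stress, went from 57.01, 71.1 and 73.8 to 92.9, 135 and 141 CPM. All of these calls were lost without sham 1 and without ICH+P7C3-A20 3 (Mt2 adjusted p = 0.0541 and 0.0573). limma on log2(FPKM + 1) called 0 of the 9. In the NRF2 and ferroptosis list 1 of 20 rose, Nfe2l2 itself (0.81 ± 0.19, adjusted p = 0.0304), lost without sham 1, sham 3, ICH+P7C3-A20 2 or ICH+P7C3-A20 3 (adjusted p = 0.0631 to 0.118); its target Nqo1 had 0.39 (adjusted p = 0.584) and Slc7a11 0.45 (0.231). In the glycolysis and hypoxia list 3 of 20 rose: Hk2, hexokinase 2 (1.72 ± 0.27, adjusted p = 0.00459), the glucose transporter Slc2a1 and Egln3, an oxygen-sensing hydroxylase. Egln3 stood at 3.19, 2.21 and 2.46 CPM in sham, 8.75, 7.16 and 5.76 in ICH+P7C3-A20 and 9.86, 10.2 and 8.45 in ICH, and the treated and ICH ranges overlapped (1.46 ± 0.22 from sham, adjusted p = 0.00388; ICH+P7C3-A20 minus ICH -0.40 ± 0.22, adjusted p = 0.300). Slc2a1 (0.50) was lost without sham 1 or ICH+P7C3-A20 3 (adjusted p = 0.0787 to 0.0792). Of 13 homeostatic astrocyte genes 2 rose (5 without both libraries that stood apart): Aqp4, the water channel of astrocyte end-feet (0.77 ± 0.18, adjusted p = 0.0354), lost without sham 1, sham 2, sham 3, ICH+P7C3-A20 2 or ICH+P7C3-A20 3 (adjusted p = 0.0515 to 0.147), and Aldh1l1 (0.77), lost without sham 1, sham 2, ICH+P7C3-A20 2 or ICH+P7C3-A20 3 (adjusted p = 0.0923 to 0.154).

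Outside the lists, the largest rises included Ch25h, which makes 25-hydroxycholesterol, from 0.271, 0.129 and 0.0455 to 2.98, 5.30 and 6.13 CPM (5.03 ± 0.47, adjusted p = 3.99e-04, and 5.80 without sham 1). The myeloid receptors Lilrb4a and Lilr4b rose by 4.77 ± 0.32 and 5.22 ± 0.37. They share sequence, so the split between them is uncertain. Among genes that were raised against sham and lower than in ICH, those with the smallest p in the second comparison were Lgals1, Ctsc, Ifi30, Tgfbi, Fcgr1, Tcirg1, S1pr3 and Ccnd1. Lgals1, galectin-1, stood at 4.35, 4.27 and 4.28 CPM in sham, 20.996, 37.0 and 31.1 in ICH+P7C3-A20 and 94.1, 90.0 and 108 in ICH, with no overlap between groups. Its change from sham was 2.79 ± 0.19 (adjusted p = 1.15e-04) and its difference from ICH -1.71 ± 0.18 (adjusted p = 0.00508). Ctsc, the cathepsin that activates serine proteases of granules, stood at 10.5, 10.04 and 9.71 CPM in sham, 30.1, 43.2 and 46.6 in ICH+P7C3-A20 and 111, 120.0 and 115 in ICH (1.98 ± 0.15 from sham, -1.53 ± 0.15 from ICH). Ifi30, a lysosomal thiol reductase of antigen processing, rose by 2.86 ± 0.24.

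Of the 12 lowest changes named, those that no left-out library ended were Ano2, Hnrnpa3, Nexn, Rarb and Sh3rf2. Ano2, a calcium-activated chloride channel, went from 25.9, 18.5 and 25.0 to 5.87, 10.5 and 8.59 CPM, with 9.53, 6.74 and 10.8 in ICH (-1.48 ± 0.25, adjusted p = 0.00629). Treated and ICH values overlapped, and the difference from ICH was -0.12 ± 0.24 (adjusted p = 0.831). Nexn, an actin-binding protein, fell from 69.8, 58.9 and 69.1 to 19.5, 33.5 and 34.5 CPM (-1.18 ± 0.19, adjusted p = 0.00516), Sh3rf2, a RING-domain scaffold, from 62.1, 45.2 and 64.5 to 17.9, 27.0 and 29.4 CPM (-1.21 ± 0.19) and Rarb, a retinoic acid receptor, from 43.3, 36.7 and 69.8 to 17.5, 23.9 and 22.8 CPM (-1.22 ± 0.23). In ICH these 3 had -1.24, -1.33 and -1.36 from the same sham mice. The largest fall of all was that of Hnrnpa3 (-3.69 ± 0.27). It stood at 127, 140.4 and 141 CPM in sham, 6.83, 11.7 and 13.1 in ICH+P7C3-A20 and 8.35, 13.6 and 15.3 in ICH. This fall is uncertain because the gene shares sequence with 16 other genes of GENCODE M21.

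A few genes rose above sham and also lay above ICH. Mical2, a monooxygenase of actin filaments, stood at 80.7, 78.5 and 105 CPM in sham, 222, 194 and 166 in ICH+P7C3-A20 and 74.0, 92.6 and 94.2 in ICH. Its treated libraries were all above the other 6, with a log2 change of 1.14 ± 0.15 from sham (adjusted p = 0.00214) and 1.16 ± 0.15 from ICH (adjusted p = 0.00634), and no left-out library ended the call against sham. Stx1a, a syntaxin of synaptic release, stood at 34.4, 35.4 and 77.4 CPM in sham, 171, 105 and 99.2 in ICH+P7C3-A20 and 41.3, 50.4 and 48.3 in ICH (1.35 ± 0.32 from sham, adjusted p = 0.0391), lost without sham 1, sham 2, ICH+P7C3-A20 1, ICH+P7C3-A20 2 or ICH+P7C3-A20 3 (adjusted p = 0.0664 to 0.125). Scube1, a secreted and cell-surface protein, stood at 9.91, 4.91 and 10.5 CPM in sham, 58.1, 20.97 and 20.8 in ICH+P7C3-A20 and 6.93, 11.8 and 8.04 in ICH (1.98 ± 0.44, adjusted p = 0.0305); the change was 1.31 without ICH+P7C3-A20 1, and the call was lost without sham 1, sham 2 or sham 3 (adjusted p = 0.0748 to 0.0883). Stac2 (0.67) was lost without ICH+P7C3-A20 3 (adjusted p = 0.0503). In all 4 the highest library was ICH+P7C3-A20 1, the one with the highest cortical markers (169 CPM, against 70.5 and 90.6 in the other treated libraries, 41.2 to 70.4 in sham and 46.1 to 56.9 in ICH), and the part of cortical tissue in these rises was not tested.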

How the data were processed

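PolyA RNA from 9 mouse brains (3 per group) was sequenced from strand-marked libraries made from RNA with an integrity number above 7, per the labels' protocols. Per the submitters' processing notes, cutadapt 1.9, HISAT2 2.0.4 and StringTie 1.3.4d were used; for the build, the strand setting and the counting step the sources used here say nothing, so reads of overlapping genes cannot be told apart. The authors deposited 1 table of 35112 genes with FPKM values (fragments scaled to gene length and library size, per the file headers) and estimated counts per library, which are whole numbers. Of the low genes with a single transcript, 93.3% to 94.1% per library had an estimated count equal to FPKM times length times a constant, rounded up, so they are estimates from coverage.

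edgeR 4.0.16 (R 4.3.3) was run on all 9 libraries after its filterByExpr step (counts of at least 10, totals of at least 15) and TMM scaling; its quasi-likelihood test, robust and two-sided, compared 3 group means with 6 residual degrees of freedom, with Benjamini-Hochberg adjustment over 21900 genes. Alternatives were DESeq2 1.42.0, limma 3.58.1 on log2(FPKM + 1) and log2(FPKM + 0.1) of the deposited FPKM, array weights, quantile normalization, other scalings and filters, fits to just the groups compared, a block on replicate number, and leaving out each library. The fits were tested on simulated data. Shared sequence was searched with minimap2 2.31 (at least 200 bases at 98% identity), and among the genes named it was found for Aldh1l1, Apoc2, C2, C4b, Ccnb1, Ccnd1, Cdkn1a, Cfb, Clcf1, Ctsd, Cxcl16, Ftl1, Hba-a1, Hnrnpa3, Hspa1b, Hspb1, Icam1, Il1a, Jun, Lilr4b, Lilrb4a, Ly6c2, Mki67, Mt2, Nexn, Nfkb2, Pcna, Pycard, Rarb, Slc32a1 and Tlr3, whose counts are therefore uncertain. Figures used matplotlib 3.10.9 in Python 3.11.15.

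Genes were named by rule: the 12 largest and 12 lowest changes among called genes whose groups do not overlap and reach a mean FPKM of 2, per list up to 4 members, those of smallest p, 8 genes a side by their p against ICH, and 10 genes of interest. Other list members were added after their values were seen. The comparison, the lists and the rule were chosen with earlier results of these data known. A few genes of the lists are not reported here by name; they are in the list counts and medians, and the marker sums leave them out.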

Additional observations from a re-analysis of the deposited data

How the results depend on the processing

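For ICH+P7C3-A20 against sham, the 1165 genes called (1002 higher, 163 lower) became 2109 with DESeq2 (1558 and 551), 435 in the compared groups alone (393 and 42), 331 with limma on log2(FPKM + 1) (314 and 17), 527 on log2(FPKM + 0.1) (505 and 22) and 475 on quantile-normalized FPKM (390 and 85). Array weights in limma gave 316 lower. Leaving out both libraries that stood apart, an alternative chosen after seeing the data, gave 2222 (1661 and 561). Leaving out 1 library gave 538 to 1434 calls, 496 to 1244 higher and 42 to 243 lower. For ICH+P7C3-A20 against ICH, 1914 became 3532 with DESeq2, 3051 with array weights and 1250 on log2(FPKM + 0.1), and 571 to 1954 without 1 library. The replicate numbers did not pair the libraries: deviations of same-numbered libraries correlated at -0.128 to 0.092, and a fit with the number as a block called 944 genes (830 higher, 114 lower). Exact permutation of 3 against 3 cannot give a p below 0.1, so the p-values come from models fitted across all genes. No gene called on all libraries changed sign among those named. List medians near 0 did: the interferon-stimulated median went from -0.27 to 0.03 without both libraries that stood apart, and the pan-neuronal one from -0.10 to 0.03 without ICH+P7C3-A20 2. Without both libraries the interferon calls were 2 higher and 1 lower, and the inhibitory neuron calls without ICH+P7C3-A20 2 were 2 higher and 1 lower. Medians of the lymphocyte, NAD synthesis, mitochondrially encoded, heat shock, ER stress, immediate early and neurotrophic lists also changed sign under some alternatives.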

Other observations

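Counts over the pathway names of the deposited table, chosen after seeing the data and given with no test, describe wider groups than the lists. Of 6386 tested genes with a pathway, 510 (7.99%) were called higher in ICH+P7C3-A20 than in sham and 53 (0.83%) lower. Among 184 pathways with at least 30 tested genes, complement and coagulation cascades had 24 of 64 genes higher (37.5%), NF-kappa B signalling 30 of 93 (32.3%), hematopoietic cell lineage 23 of 77 (29.9%), osteoclast differentiation 34 of 120 (28.3%), p53 signalling 18 of 70 (25.7%), Toll-like receptor signalling 21 of 83 (25.3%) and ECM-receptor interaction 20 of 82 (24.4%). These pathways share members with each other and with the lists above.

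For other lists, 4.58% of all genes tested were higher in ICH+P7C3-A20 than in sham. Of 14 heat shock genes 2 rose (1 without sham 1, sham 3 or ICH+P7C3-A20 2 or 3): Hspa1b, an inducible HSP70, from 2.36, 4.51 and 3.12 to 7.75, 10.6 and 7.71 CPM (1.38 ± 0.24, edgeR adjusted p = 0.00792), with counts uncertain for shared sequence, and Hspb8 (0.67), lost without sham 1, sham 3, ICH+P7C3-A20 1, ICH+P7C3-A20 2 or ICH+P7C3-A20 3 (adjusted p = 0.0669 to 0.172). Of 17 ER and integrated stress genes 1 rose, Atf3, an injury-induced transcription factor, from 0.938, 1.12 and 0.864 to 2.04, 5.87 and 2.70 CPM (1.86 ± 0.36, adjusted p = 0.0144), lost without sham 1 (adjusted p = 0.0617); 3 rose and 1 fell without ICH+P7C3-A20 1. Of 15 neurotrophic genes 1 rose, Igf1, a growth factor of microglia and other cells (1.31 ± 0.30, adjusted p = 0.0319), lost without sham 1, ICH+P7C3-A20 1 or ICH+P7C3-A20 3 (adjusted p = 0.0651 to 0.115); 2 rose without sham 3. Of 6 platelet markers 2 rose, Pf4, a platelet chemokine (1.74 ± 0.43, adjusted p = 0.0441), lost without sham 2, sham 3, ICH+P7C3-A20 2 or ICH+P7C3-A20 3 (adjusted p = 0.101 to 0.150), and Treml1, which had no count in sham and was lost without sham 1, sham 2, sham 3, ICH+P7C3-A20 2 or ICH+P7C3-A20 3 (adjusted p = 0.0534 to 0.0882). Oligodendrocyte precursor genes had 0 of 12 called in edgeR, with 4 higher at unadjusted p under 0.05, 1 higher in DESeq2 and 0 in limma, and 2 higher without ICH+P7C3-A20 1. Mitochondrially encoded genes (13) and choroid plexus genes (13) had 0 called in edgeR, at unadjusted p under 0.05, in DESeq2 and in limma. Thalamic and hypothalamic genes had 0 of 15 called by the same 4 readings, 1 lower without sham 3 and 2 lower without both libraries that stood apart.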
